A study of Sus scrofa with 6 samples.

Results

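The data described here are the levels of miR-140-3p and miR-140-5p (ssc-miR-140-3p and ssc-miR-140-5p in the table), the mature miRNAs cut from the right and the left side of the mir-140 hairpin, in small extracellular vesicles (s-EVs) of porcine follicular fluid. They are 2 of the 453 miRNAs in the deposited table, found by name. The pair was chosen by its measured CPM values, since the 3p arm was among the most abundant miRNAs and far above the 5p arm, so the levels and the size of the 3p/5p ratio are given as a description, with no test. Each library was made from s-EVs of 0.5 mL of pooled follicular fluid from prepubertal Landrace × Large White gilts, 6 to 8 months of age, with follicles of 2 to 6 mm according to the sample labels, where the methods text has a narrower range. The 3 high-quality (HQ) libraries stand for fluid around oocytes that did not take up lissamine green B, a vital dye, and the 3 low-quality (LQ) libraries for fluid around oocytes that did. Neither group received a treatment, and each library pools fluid from several follicles, so no value belongs to 1 follicle or oocyte.

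A miRNA hairpin is cut by Drosha and then by Dicer into a short duplex, from which 1 strand is loaded into an Argonaute protein and the other is mostly degraded. The retained strand pairs with target mRNAs mainly through its seed, bases 2 to 8. The strand that is retained differs between hairpins and, for some, between tissues. mir-140 lies in an intron of WWP2, which encodes an E3 ubiquitin ligase, and is best known from cartilage, where in mouse it is induced by SOX9 and its loss shortens the skeleton. In mouse and human cartilage, the matrix protease gene ADAMTS5 and the histone deacetylase gene HDAC4 are known targets of miR-140-5p.

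In Sscrofa11.1 the hairpin was annotated on the minus strand of chromosome 6, from 17077530 to 17077599. It lies inside WWP2 (17068780 to 17227982, same strand), in an intron from 17076299 to 17078476, and 0 exons of the 5 annotated WWP2 transcripts overlap it. miR-140-3p spans 17077533 to 17077555 and miR-140-5p spans 17077573 to 17077593. The arms are shown because they share a precursor and yet differ widely in level, with the seed in capitals.
miR-140-3p: uACCACAGgguagaaccacggac
miR-140-5p: aGUGGUUUuacccuaugguag
The whole hairpin of 70 bases, with both arms in capitals, reads as follows in the RefSeq annotation.
mir-140 hairpin: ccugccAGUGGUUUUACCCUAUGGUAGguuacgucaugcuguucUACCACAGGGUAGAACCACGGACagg
The predicted fold (-39.1 kcal/mol, RNAfold) has 18 base pairs between the arms, 1 of them a G-U wobble. miR-140-3p is 23 bases long with a GC content of 56.5%, and miR-140-5p is 21 bases long with 42.9%. The 5p arm as annotated in the pig starts with A, and the seed printed here rests on that start. The human entry starts a base earlier, and the table gives 1 value per mature miRNA, so isoforms with a shifted start were not told apart. Among the 369 mature names annotated in Sscrofa11.1, 0 others shared either seed, and 367 of the 453 miRNAs in the table had a sequence there.

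The deposited values are TMM-adjusted counts per 1000000 reads (CPM), that is, the share of miRNA reads that a miRNA takes, with a further scaling of each library. The lowest value above 0 of a library divides all its other values without remainder. If this step is 1 read, the libraries held 898530 reads in LQ replicate 1, the shallowest, and 1643814 to 3159116 in the other 5. All 8 gonad and granulosa miRNAs of a marker list, headed by miR-202-5p, were above 0 in at least 1 library, at a summed 50115 to 100464 CPM in HQ and 73282 to 89242 CPM in LQ. Most of the sum was miR-202-5p, which averaged 71448 CPM in HQ and 70526 CPM in LQ. Only 7 of the 8 averaged over 1 CPM in HQ or LQ, and miR-224 and miR-212 averaged 9.82 and 1.18 CPM in HQ. Of these 7, 2 were higher in HQ with a limma adjusted p under 0.05 and 0 were higher in LQ. The 2 were miR-132 (213 CPM in HQ and 82.6 CPM in LQ, limma adjusted p = 0.00259) and miR-202-3p (906 and 505 CPM, 0.0287). Markers of other cells were low and some differed in sum between the groups. Muscle markers (4 of 4 detected) summed to 56.5 to 64.3 CPM in HQ and 147 to 230 CPM in LQ, endothelial miR-126 arms (2 of 2) to 874 to 1062 and 1619 to 2149 CPM, neural markers (3 of 3) to 4.22 to 8.90 and 99.5 to 219 CPM, leukocyte markers (5 of 5) to 193 to 213 and 217 to 318 CPM, and epithelial markers (2 of 3, miR-200c at 0) to 749 to 1022 and 1271 to 1464 CPM. Erythrocyte markers (3 of 3) summed to 99.3 to 152 CPM in HQ and 78.0 to 87.3 CPM in LQ, with miR-486 higher in HQ and miR-451 higher in LQ (limma, adjusted p of 0.0158 and 0.0403), and the liver miRNA miR-122-5p was at 334 to 435 and 443 to 821 CPM. Not every marker followed its sum. Those higher in LQ with a limma adjusted p under 0.05 were 3 of 4 for muscle and 2 of 2 tested for neural. For endothelial, leukocyte and epithelial markers they were 1 of 2, 1 of 5 and 1 of 2 tested. No marker of the muscle, neural, endothelial, leukocyte and epithelial lists was higher in HQ at that threshold. The endothelial one was miR-126-5p (adjusted p = 0.00222). miR-126-3p had close group means, 277 (HQ) and 312 (LQ), with an adjusted p of 0.640. Less of a miRNA per vesicle and fewer vesicles of one origin cannot be told apart in these pools.

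miR-140-3p stood among the 5 most abundant miRNAs in all 6 libraries. In the order of the replicate numbers its level was 72897, 87051 and 80103 CPM for HQ and 98509, 73983 and 76079 CPM for LQ. The groups overlapped, and LQ replicate 1, the shallowest library, held the highest value. The arm took 7.07% (LQ replicate 3) to 9.51% (HQ replicate 2) of the summed CPM of a library and ranked from 2 in HQ replicate 2 to 5 in LQ replicate 2.
By the mean over the 6 libraries, miR-140-3p was in place 4, at 81437 ± 9818 CPM (SD, n = 6), and by group means it was in place 2 in HQ and place 4 in LQ. miR-29a-3p, a regulator of collagen genes (89253 ± 14895 CPM, SD, n = 6), and miR-16, which represses cyclin genes (88940 ± 31134 CPM, SD, n = 6), came next above it. miR-202-5p, typical of the gonads (70987 ± 18534 CPM, SD, n = 6), came next below. This order did not hold in each group. miR-16 was below miR-140-3p in all 3 HQ libraries (62303 ± 3823 CPM, SD, n = 3) and above it in all 3 LQ libraries (115577 ± 16734 CPM, SD, n = 3). miR-29a-3p was above miR-140-3p in 1 HQ and 3 LQ libraries, and miR-202-5p in 2 HQ and 1 LQ library. miR-29c followed at 39981 ± 14375 CPM (SD, n = 6) and was lower than miR-140-3p in all 6 libraries. The spread of miR-140-3p between replicates of a group was small, with a pooled SD of 0.18 on the log2 scale, against a median of 0.26 over the 78 miRNAs that averaged over 1000 CPM in HQ or LQ, and 23 of these had a smaller one.

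miR-140-5p was a miRNA of middle abundance. In the same order its level was 152, 152 and 104 CPM for HQ and 185, 205 and 302 CPM for LQ. The 3 LQ values all exceeded the 3 HQ values, and LQ replicate 3, the deepest library, held the highest value. The arm ranked between 107 (LQ replicate 3) and 138 (HQ replicate 3) of 297 to 325 miRNAs above 0 and took 0.0111% to 0.0281% of the summed CPM of a library. By this share the groups lay closer together than by CPM, with 0.0166% in HQ replicate 2 and 0.0168% in LQ replicate 1. Its neighbours by the mean over the 6 libraries were miR-7134-3p and miR-7-5p above and miR-340 and miR-34c below, at 177 to 190 CPM, and none of these 4 stood on 1 side of miR-140-5p in all libraries. miR-7134-3p was above it in all 3 HQ libraries (252 ± 69.0 CPM, SD, n = 3) and below it in all 3 LQ libraries (128 ± 12.8 CPM, SD, n = 3). Its pooled SD between replicates was 0.34 on the log2 scale, against a median of 0.32 over the 73 miRNAs of 50 to 500 CPM.

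**Figure D1:**
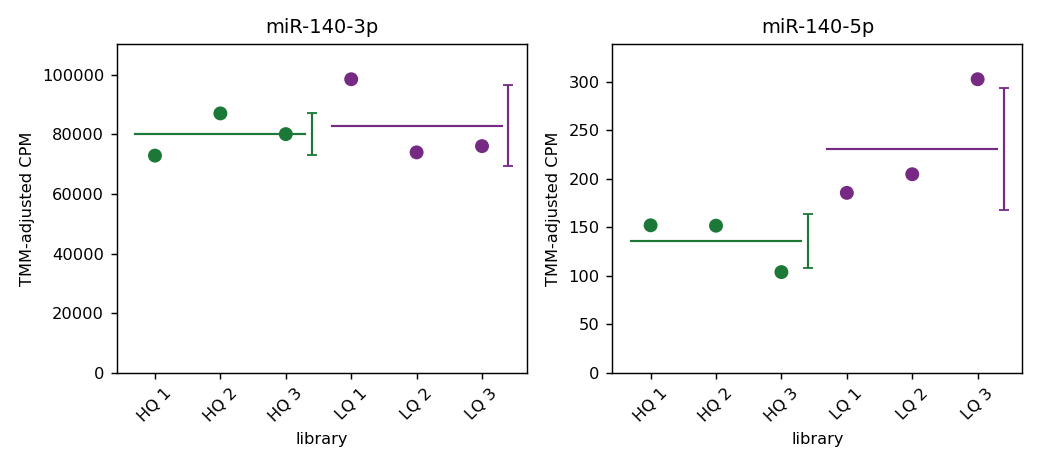
Levels of miR-140-3p (left) and miR-140-5p (right) in each library, in TMM-adjusted CPM on linear axes of different height. Points are libraries (green HQ, purple LQ), lines are group means and bars the SD (n = 3). The HQ and LQ points overlap for the 3p arm and do not for the 5p arm, where HQ lies between 104 and 152 CPM and LQ between 185 and 302 CPM.

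The 3p arm exceeded the 5p arm at least 252-fold in every library. In replicate order the 3p/5p ratio was 479, 574 and 771 for HQ and 531, 362 and 252 for LQ. LQ replicate 1 lay within the HQ range, and LQ replicates 2 and 3 lay below every HQ library. The ratio was 608 ± 149 (SD, n = 3) in HQ and 381 ± 141 (SD, n = 3) in LQ.
Counting error was small beside the distance between the lowest and the highest library, but not beside that between every 2 libraries. With a step taken as 1 read, the 5p arm rested on 151 (LQ replicate 1) to 888 (LQ replicate 3) reads and the 3p arm on 80203 to 223374 reads. The exact 95% interval of the ratio was 667 to 897 in HQ replicate 3 and 236 to 269 in LQ replicate 3. The intervals of HQ replicate 1 (430 to 536), HQ replicate 2 (516 to 640) and LQ replicate 1 (453 to 627) overlapped one another. The 5p arm made up 0.130% (95% Wilson interval 0.112% to 0.150%) of the reads of the pair in HQ replicate 3 and 0.396% (0.371% to 0.423%) in LQ replicate 3, with the other libraries between. On the log2 scale the counting SD of the ratio was 0.05 to 0.12, while the pooled SD between replicates was 0.45. These intervals cover counting error only.

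**Figure D2:**
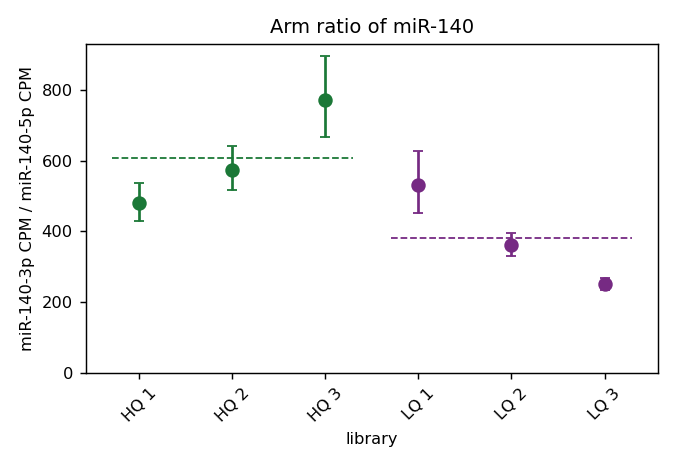
Ratio of miR-140-3p CPM to miR-140-5p CPM in each library. Points are libraries (green HQ, purple LQ), bars are exact 95% counting intervals with a step taken as 1 read, and dashed lines are group means. LQ replicate 1, at 531, lies within the HQ range of 479 to 771, and LQ replicates 2 and 3, at 362 and 252, lie below it.

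To place this ratio, both arms were compared for all 66 hairpins whose 2 arms are named in the table and each averaged over 1 CPM in HQ or LQ, on log2((3p + 0.5)/(5p + 0.5)). The 3p arm was higher in 26 and the 5p arm in 40. The median distance between arms, in either direction, was 28.2-fold. miR-140, at a mean log2 ratio of 8.86 (465-fold), was in place 6 from the 3p side in the mean over libraries and in places 4 to 6 in single libraries. By distance in either direction it was in place 8. Next above it were miR-28 (781-fold, higher than miR-140 in 4 of 6 libraries) and miR-676 (1282-fold, higher in 6), and next below were miR-421 and miR-345 (131-fold, lower in 6). The lower arms of miR-28 and miR-345 rested on 2 to 12 and 3 to 16 reads, and miR-421-5p was at 0 in 3 libraries, so these ratios and places are poorly fixed.
The 3 hairpins with the largest 3p excess were miR-27b, miR-29a and miR-148a. Their 5p arms averaged 1.59, 1.99 and 3.01 CPM, which is at most 10 reads in any library, and miR-27b-5p was at 0 in 2 libraries, so their ratios are poorly fixed too. Among the 19 hairpins with arms more than 100-fold apart, 8 toward 3p and 11 toward 5p, the lower arm had a median of 4.43 CPM. There miR-140-5p, at 183 CPM, was the lower arm in place 2, after miR-202-3p at 705 CPM. Over all 66 hairpins the main arm of miR-140 was in place 3 and its lower arm in place 10.

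**Figure D3:**
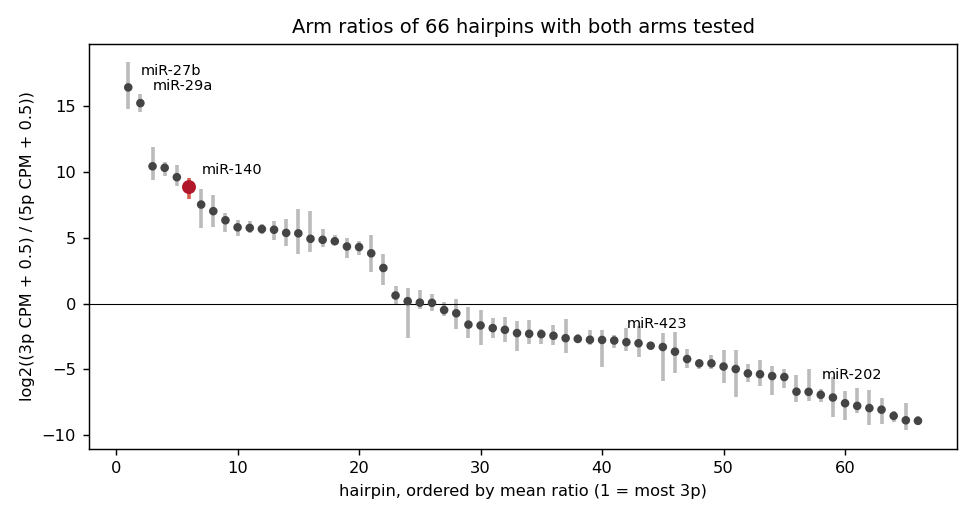
Mean log2 ratio of 3p to 5p CPM (pseudocount 0.5) for 66 hairpins, ordered from the most 3p to the most 5p. Points are means over 6 libraries and bars run from the lowest to the highest library. miR-140 (red) is in place 6, at 8.86.

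The comparison hairpins miR-202 and miR-423, which also give abundant miRNAs, favoured the 5p arm. miR-202 was 104-fold and miR-423 was 6.97-fold toward 5p in the geometric mean over libraries. Their arms are shown for their starts, again with bases 2 to 8 in capitals.
miR-202-5p: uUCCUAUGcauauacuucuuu
miR-202-3p: aGAGGUGUaggcaugggaa
miR-423-5p: uGAGGGGCagagagcgagacuuu
miR-423-3p: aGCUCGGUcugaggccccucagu
In the annotation miR-202-5p lies on chromosome 14 from 141207181 to 141207201 and miR-423-5p on chromosome 12 from 46211534 to 46211556. In these hairpins and in mir-140 the more abundant arm starts with U and the other with A, whichever side it comes from. Of the 48 hairpins with both sequences annotated, the more abundant arm started with U in 24 and the other arm in 9. In 22 only the more abundant arm did, as in mir-140, and in 7 only the other. The more abundant arm had the higher GC content in 19 of the 48, as in mir-140.

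The comparison of HQ with LQ asks whether the miRNA cargo of s-EVs differs with the quality of the oocyte. All 309 miRNAs whose mean exceeded 1 CPM in at least 1 group were tested with limma on log2(CPM + 0.5), and 82 (26.5%) had a Benjamini-Hochberg adjusted p under 0.05. When a fold of at least 2 and more than 5 CPM in the higher group were required too, 39 (12.6%) were called. The count of 82 was 48 without HQ replicate 1, 29 without HQ replicate 2 and 46 without LQ replicate 2, and that of 39 was 22 without HQ replicate 2.
miR-140-3p did not pass. The HQ mean was 80017 ± 7078 CPM and the LQ mean 82857 ± 13595 CPM (SD, n = 3 each). limma put the log2 fold change, HQ over LQ, at -0.04, with a standard error of 0.17 and a 95% interval of -0.41 to 0.32 (adjusted p = 0.891). The interval covers levels in LQ from 0.799 to 1.33 times those in HQ. The sign was positive without HQ replicate 1 (0.02) and without LQ replicate 1 (0.09).
miR-140-5p was higher in LQ. The HQ mean was 136 ± 27.7 CPM and the LQ mean 231 ± 62.7 CPM (SD, n = 3 each). This was a log2 fold change of -0.75 with a standard error of 0.27 (limma, adjusted p = 0.0454), or 1.68-fold higher in LQ (95% interval 1.14 to 2.48, unadjusted). It was not called, since the fold was below 2. Among the 309 tested miRNAs, 46 (14.9%) passed the adjusted test with the higher level in LQ (27 with equal sums of CPM), and in 70 (22.7%) all LQ values lay above all HQ values, as for miR-140-5p. The adjusted p was over the threshold without HQ replicate 1 (0.0662), HQ replicate 2 (0.0885), HQ replicate 3 (0.146), LQ replicate 2 (0.0844) or LQ replicate 3 (0.255), and stayed under it without LQ replicate 1 (0.0195). It was also over the threshold with no filter on low values (0.0627), with no trend in the variance prior (0.115), when every library was given the same CPM total (0.127), and after GC correction without (0.148) and with (0.0821) the replicate block.
Rescaling to equal sums moved the median log2 fold change of all tested miRNAs from 0.08 to 0.25, a shift of 0.18. Relative to that median miR-140-5p stood at -0.83 with the deposited scaling and at -0.81 with equal sums, and miR-140-3p at -0.12 and -0.10. Of the calls, 16 had the higher level in HQ and 23 in LQ as deposited, and 31 and 12 with equal sums. At an adjusted p under 0.05 alone, 36 were higher in HQ and 46 in LQ as deposited, and 60 and 27 with equal sums.

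**Figure D4:**
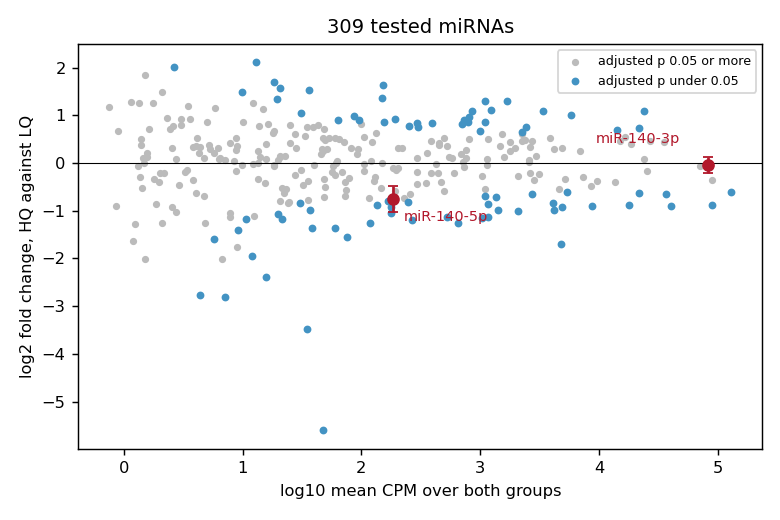
Log2 fold change of HQ against LQ for 309 miRNAs by log10 of the mean CPM over both groups. Blue points had an adjusted p under 0.05, grey points did not, and the arms of miR-140 are in red with standard errors. miR-140-3p lies at -0.04 near the right end and miR-140-5p at -0.75 in the middle of the range.

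The ratio of the arms does not depend on the scaling of a library, apart from the pseudocount. Its log2 value, with the pseudocount, was 9.21 ± 0.35 (SD, n = 3) in HQ and 8.51 ± 0.54 (SD, n = 3) in LQ. The difference of 0.71 (standard error 0.33, 95% interval 0.07 to 1.35, unadjusted) did not pass over the 66 hairpins (limma, p = 0.0309 and adjusted p = 0.120), and the exact permutation test of the log2 ratio over the 6 libraries gave p = 0.2, two-sided, where 0.1 is the smallest p that 3 against 3 allow. Of the 66 arm ratios, 9 (13.6%) had an adjusted p under 0.05, but 1 without LQ replicate 2, 3 without LQ replicate 3, and 0 with no trend in the variance prior of limma, where 13 had an unadjusted p under 0.05. In 20 (30.3%) the groups did not overlap, and miR-140 was not among them. Without LQ replicate 1 the difference for miR-140 was 0.98 (adjusted p = 0.0476), and without LQ replicate 3 it was 0.44 (adjusted p = 0.526).
The 4 hairpins with the smallest p were miR-671, miR-1306, miR-574 and miR-374b, with differences of 1.68, -1.32, 1.13 and -1.84 (adjusted p of 0.000445 for the first and 0.0121 for the others, limma). miR-202 was at 0.90 (adjusted p = 0.0913), miR-423 at 0.01 (0.996) and miR-29a at 0.04 (0.990). Over all hairpins, the ratio of the more to the less abundant arm was higher in HQ for 30 of 66, with a median difference of -0.07. Among the 66 less abundant arms 4 passed with the higher level in LQ, miR-140-5p included, and 6 with the higher level in HQ. Among the 66 more abundant arms 14 passed with the higher level in LQ and 9 with the higher level in HQ. Over all 309 tested miRNAs these counts were 46 and 36.
The libraries differed in their trend with GC content, and the arms of miR-140 differ in GC content by 13.7 percentage points. The slope of a library's deviation on GC content was 0.25, 0.24 and 0.06 log2 units per 10 percentage points for the HQ libraries in replicate order and -0.17, -0.18 and -0.20 for the LQ libraries. With these trends removed, over the 256 of 309 tested miRNAs of known sequence (82.8%), the log2 fold change was -0.34 for miR-140-3p (adjusted p = 0.195) and -0.55 for miR-140-5p (adjusted p = 0.148), and the difference between these corrected values was 0.21, against 0.71 for the uncorrected ratio. No test over hairpins is given for it, since 48 of the 66 hairpins had both sequences. In a fit of the same 256 miRNAs without the correction, added after seeing the data, miR-140-5p was at -0.75 (limma, adjusted p = 0.0467). A difference between the groups that follows GC content is removed with the trend, whatever its source.

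**Figure D5:**
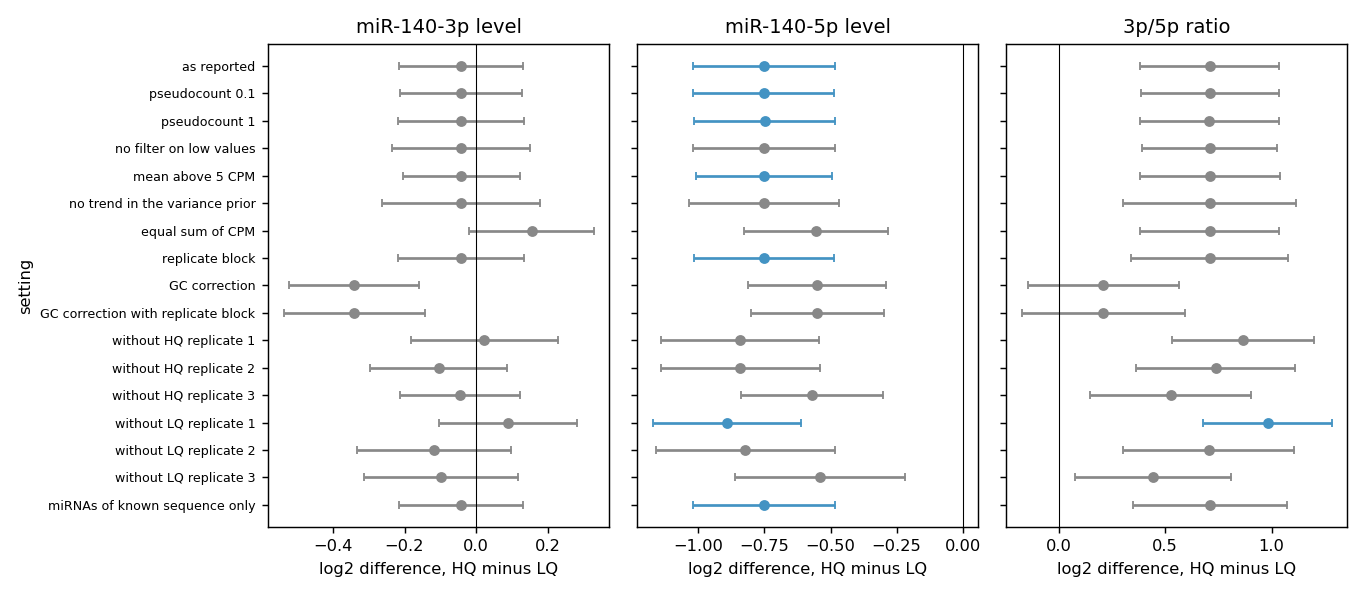
Log2 difference, HQ minus LQ, of the miR-140-3p level, the miR-140-5p level and the 3p/5p ratio under each setting, with standard errors. Blue points had an adjusted p under 0.05. The standard errors of the ratio after GC correction come from a fit over 48 hairpins. The 5p level is below 0 in all settings, from -0.89 to -0.54, the ratio is above 0 in all, from 0.21 (after GC correction, the difference of the corrected levels) to 0.98, and the 3p level lies on both sides of 0.

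Across the 6 libraries the arms did not move together, with Pearson's r of -0.13 on log2(CPM + 0.5) as a description of libraries that also differ in depth and GC trend. By the same measure over the other 308 tested miRNAs, the profiles most like that of miR-140-5p were miR-10388 (r = 0.99), miR-122-5p (0.97) and miR-127 (0.94). Their group means were higher in LQ, and miR-122-5p, a miRNA of liver, had means of 391 ± 51.8 and 601 ± 196 CPM in HQ and LQ (SD, n = 3 each). The other 2 were low. In HQ and LQ miR-10388 was at 7.35 ± 1.91 and 17.5 ± 9.37 CPM, and miR-127 at 17.6 ± 1.13 and 27.5 ± 5.30 CPM (SD, n = 3 each). None of these 3 miRNAs passed the test (adjusted p of 0.0562, 0.103 and 0.146, limma). The profiles most like that of miR-140-3p were miR-582-3p (r = 0.91), miR-4331-5p (0.90) and miR-96-5p (0.89). Of these only miR-4331-5p was above 10 CPM in either group, with means of 303 ± 29.5 and 283 ± 64.2 CPM in HQ and LQ (SD, n = 3 each). For both arms these are the 3 highest of 308 values of r over 6 libraries, so their height partly reflects that choice.

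Other miRNAs known from cartilage, 8 in all, were detected and tested too. Of these, miR-27b-3p, which targets the collagenase gene MMP13 in human chondrocytes, was higher in LQ, from 102691 ± 8347 to 155626 ± 8550 CPM (SD, n = 3 each), a difference of -0.60 on the log2 scale (limma, adjusted p = 0.0104). miR-145-5p, which targets SOX9 in human chondrocytes and is typical of smooth muscle, was higher in HQ, at 324 ± 136 CPM against 178 ± 15.4 CPM (SD, n = 3 each), a difference of 0.78 (adjusted p = 0.0455). The other 6 did not pass. The arms of miR-455, which like miR-140 is induced by SOX9 in cartilage, were low here, at 3.27 ± 1.73 and 1.68 ± 0.414 CPM (SD, n = 3) in HQ and LQ for miR-455-3p and 21.6 ± 1.66 and 19.9 ± 5.82 CPM for miR-455-5p (adjusted p of 0.442 and 0.771). In miR-455 the 5p arm was thus the higher in both groups, unlike in miR-140. miR-146a-5p, miR-199a-3p, miR-199a-5p and miR-22-3p had log2 fold changes of -0.52 to 0.03. The list's median log2 fold change was -0.07, beside 0.08 over all 309 miRNAs tested, and 1 of 8 was higher in each direction, beside 36 higher in HQ and 46 higher in LQ of 309 as deposited and 60 and 27 with equal sums.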

How the data were processed

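Small-RNA libraries (QIAseq miRNA Library Kit) of s-EVs from 3 HQ and 3 LQ pools were sequenced as single-end reads. The authors' methods describe trimming, mapping to Sscrofa11.1 and annotation with miRBase in CLC Genomics Workbench, followed by TMM scaling. Bowtie2 2.2.2, DESeq2 and bcl2fastq are listed in the submitters' processing notes, and which of these tools made the table is not settled. The authors deposited 1 signal value for each miRNA in each library, in TMM-adjusted CPM. The sources used here do not say whether molecular identifiers were collapsed. The steps were not accepted as recovered reads, so no test for counts was run. Whether replicates are separate pools of animals is not stated beyond the label of biological replicates.

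Groups came from the labels. Levels above 1 CPM in the mean of at least 1 group, and log2 ratios of arms, were tested with limma 3.58.1 in R 4.3.3 (pseudocount 0.5, variance prior trended on the level, for a ratio on that of the lower arm), two-sided, with Benjamini-Hochberg adjustment over 309 miRNAs or 66 hairpins, after a test on simulated data. Sequences were read from RefSeq Sscrofa11.1, by name for 347 miRNAs and by the side of the precursor for 20, with 86 not matched. Folding used ViennaRNA 2.7.2. Named miRNAs were the arms, their 2 neighbours on each side in level, the 5 most abundant, the 3 most alike by Pearson's r, hairpins at the ends of the order and next to miR-140, 3 comparison hairpins, the 4 of smallest p, and a cartilage list. The members and lists were chosen with earlier results of these data known. Alternatives covered the pseudocount, filter, variance prior, scaling, replicate block, GC correction and each library left out. The fit on miRNAs of known sequence only was added after seeing the data.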

Additional observations from a re-analysis of the deposited data

How the results depend on the processing

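The direction of the miR-140-5p level and of the arm ratio was kept in all alternatives run, where the ratio after GC correction is the difference of the corrected levels (0.21). For the level only equal sums and GC correction could have turned it. All LQ values exceed all HQ values, so leaving out a library cannot, and the other settings keep the order of the values. For the ratio the filter, prior, block and scaling leave the estimate almost unchanged. The miR-140-5p level no longer had an adjusted p under 0.05 at -0.75 with no filter on low values (adjusted p = 0.0627) and with no trend in the variance prior, at -0.55 with an equal sum of CPM, and at -0.55 after GC correction without and with the replicate block (adjusted p of 0.148 and 0.0821). Leaving out each library gave -0.89 to -0.54 for this level, 0.44 to 0.98 for the ratio and -0.12 to 0.089 for miR-140-3p, whose sign also turned with equal sums (0.16, adjusted p = 0.529). The calls were 24 with no trend in the prior and 24 after GC correction, against 39, and 22 to 53 without single libraries. At adjusted p under 0.05 alone, 29 miRNAs passed with no trend, and 29 to 109 without single libraries. Arm ratios past the test were 0 of 66 with no trend in the prior of limma (13 at an unadjusted p under 0.05), 1 with the replicate block, 1 of 48 after GC correction, 1 of 48 with both, and 1 to 11 without single libraries. With miRNAs of known sequence only and no GC correction, an alternative chosen after seeing the data, 32 of 256 miRNAs were called, 73 had an adjusted p under 0.05 and 7 of 48 ratios passed, which are the counts to set beside those after GC correction. For the ratios 48 of 66 hairpins (72.7%) had both sequences, too few, so the counts of ratios after GC correction are void as a check over hairpins. The 0.21 for miR-140 uses trends fitted on the 256 miRNAs, not on the hairpins. The cause of these changes was not tested.

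No pairing by replicate number showed, with correlations of the deviations of same-numbered libraries of -0.01, -0.01 and -0.04. These values cannot exclude that same-numbered libraries share a source. With the replicate block, miR-140-5p had an adjusted p of 0.0206, miR-140-3p of 0.898 and the ratio, at 0.71, of 0.191 (limma), and 97 miRNAs passed, against 82 without it. The ratio's interval of 0.07 to 1.35 is wide. It uses the spread shared over hairpins, so it does not show the spread of miR-140's own 3 libraries per group. With a step taken as 1 read, the lower arms of miR-27b, miR-29a and miR-148a rested on at most 4, 7 and 10 reads in any library.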
